A study of Mus musculus with 48 samples.

Results

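Circadian clock and output genes were examined in mice that model Barrett oesophagus, a condition in which columnar epithelium takes the place of the squamous lining at the lower end of the oesophagus. The genes were Dbp, Tef, Nr1d1, Nr1d2, Per1, Per2, Per3, Npas2, Ciart and Bhlhe41, and each was read from its brightest probe set that carries a single gene symbol. Of these 10 genes, 9 were measured, out of 22180 symbols on the array. The only probe set naming Per2 also names another gene, so Per2 has no value here. All 9 passed the filter on low signals that left 15242 genes for testing.

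The study measured whole tissue from the squamocolumnar junction and cardia, where oesophagus meets stomach, on 48 Affymetrix arrays in 16 groups of 3. Mice called pl2 or pL2 in the labels carry an interleukin-1 beta transgene, known as pL2-IL-1β, whose promoter is active in squamous epithelium of the upper gut. At the facility named MRI, all on chow, the groups were 3 pL2 lines crossed with Dclk (Notch1fl_fl, Notch2fl_fl and Notch2IC_LacZ) and 3 with Lgr5 and the same Notch alleles. Further MRI groups were pL2_IL8 at 12 and at 9 months, pL2_FXR, FXR, pL2 and wild type (WT). At the facility named Freising, pL2 and WT mice received a high fat diet (HFD) or chow. Except for the IL8 mice of 9 months, all mice outside the Notch lines were 12 months old. Mice of the Notch lines were 9 to 13 months old and had received tamoxifen at 3 to 6 months, per the labels; for the pL2 group they are compared with, the labels give no age at tamoxifen. The labels do not say whether the FXR lines lack or gain the receptor. Every group except FXR and the 3 WT groups carries the pL2 transgene. Whether arrays of a group come from separate mice is not stated, so p-values measure the spread between arrays.

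The mammalian clock is a feedback loop that runs in nearly every tissue. The activator Arntl (BMAL1) pairs with Clock or Npas2, binds E-box sequences, and switches on the Per genes, Nr1d1, Nr1d2, Dbp, Ciart and Bhlhe41, whose products act back on the loop. The nuclear receptors encoded by Nr1d1 and Nr1d2 (REV-ERBα and REV-ERBβ) repress Arntl and Npas2, so Dbp and Npas2 peak at nearly opposite times of day. Dbp and its relatives Tef and Hlf drive output genes through D-box sequences, which the repressor Nfil3 also binds. Tissue taken at different clock times can therefore differ in Dbp and Npas2 in opposite directions. The labels give no time of day at which tissue was taken, so time of sampling and group cannot be told apart in these data.

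Promoter windows that hold an E-box or a D-box are shown, since these are the sequences through which the background above links the genes to the loop. The windows run from 250 bases before to 50 after the gene start, from RefSeq on GRCm38.p6, and 9 of the 10 genes have one. Capitals mark each CACGTG E-box, or each D-box (TTATGTAA or TTACGTAA, both strands), found in the window.
Ciart (chr3:95882179-95882478, minus strand): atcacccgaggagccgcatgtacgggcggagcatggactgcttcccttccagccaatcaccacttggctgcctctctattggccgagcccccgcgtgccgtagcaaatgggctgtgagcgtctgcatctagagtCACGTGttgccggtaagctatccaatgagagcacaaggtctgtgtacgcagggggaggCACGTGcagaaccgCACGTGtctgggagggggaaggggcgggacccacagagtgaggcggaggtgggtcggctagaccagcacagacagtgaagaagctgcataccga
Bhlhe41 (chr6:145865371-145865670, minus strand): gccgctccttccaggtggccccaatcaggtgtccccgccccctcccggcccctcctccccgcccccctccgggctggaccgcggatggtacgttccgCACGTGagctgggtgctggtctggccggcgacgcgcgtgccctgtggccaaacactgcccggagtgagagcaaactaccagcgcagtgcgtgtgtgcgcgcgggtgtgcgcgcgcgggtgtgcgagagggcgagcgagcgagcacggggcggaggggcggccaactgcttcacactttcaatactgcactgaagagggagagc
Tef, first window (chr15:81802423-81802722, plus strand): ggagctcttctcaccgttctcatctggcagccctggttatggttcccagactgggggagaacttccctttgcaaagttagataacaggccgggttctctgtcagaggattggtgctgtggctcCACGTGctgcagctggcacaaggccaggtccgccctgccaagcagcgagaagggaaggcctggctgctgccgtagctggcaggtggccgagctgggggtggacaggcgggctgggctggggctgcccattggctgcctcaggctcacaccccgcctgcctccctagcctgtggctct
Tef, second window (chr15:81811164-81811463, plus strand): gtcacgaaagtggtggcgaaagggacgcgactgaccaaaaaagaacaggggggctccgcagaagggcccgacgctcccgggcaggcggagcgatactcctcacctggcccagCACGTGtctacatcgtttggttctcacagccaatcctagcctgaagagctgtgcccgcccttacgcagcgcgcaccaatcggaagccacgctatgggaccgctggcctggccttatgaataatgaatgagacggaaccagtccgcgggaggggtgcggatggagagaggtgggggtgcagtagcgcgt
Per1, first window (chr11:69098699-69098998, plus strand): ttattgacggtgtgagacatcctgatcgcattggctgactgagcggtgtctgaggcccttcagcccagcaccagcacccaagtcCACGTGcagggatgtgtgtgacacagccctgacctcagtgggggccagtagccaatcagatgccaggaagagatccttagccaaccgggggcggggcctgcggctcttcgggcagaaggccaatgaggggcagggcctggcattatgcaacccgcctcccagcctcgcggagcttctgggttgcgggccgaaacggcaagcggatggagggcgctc
Per3 (chr4:151044616-151044915, minus strand): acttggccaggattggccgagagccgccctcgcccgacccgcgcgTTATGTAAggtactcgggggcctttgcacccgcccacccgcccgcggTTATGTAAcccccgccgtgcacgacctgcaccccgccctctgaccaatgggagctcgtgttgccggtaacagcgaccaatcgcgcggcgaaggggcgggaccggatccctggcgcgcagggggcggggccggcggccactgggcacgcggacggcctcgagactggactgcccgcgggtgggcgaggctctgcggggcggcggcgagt

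The Ciart window held 3 E-boxes, a number reached by 0.0883% of the 32851 promoter windows of the same length. Bhlhe41 held 1, as did both windows of Tef and the first of the 2 windows of Per1; 7.15% of all windows hold at least 1. The window of Per3 held 2 D-boxes, a number reached by 0.0244% of windows, and 1.06% hold at least 1. The core hexamer bound by REV-ERB and ROR receptors, AGGTCA on either strand, was found once in Nr1d2, once in Per1 and once in the second window of Arntl, against 16.3% of all windows. Dbp, Npas2 and Nr1d1 held none of these motifs in this window, which says only that these letters are not there. A match is a description of sequence and not a binding site.

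Markers of the labelled junction were present on all arrays, with a mean of 7 gastric markers of 11.3 to 12.9 and of 6 squamous suprabasal markers of 7.62 to 10.9 on the log2 scale. Pairs of arrays within a group correlated at 0.918 to 0.989. Among the 48 arrays, 9 stood apart with a mean of hepatocyte or intestinal markers above 8, among them WT at MRI replicate 1, pL2 at MRI replicate 3, pL2_IL8 at 12 months replicate 1 and pL2_FXR replicate 3. The rest were Notch arrays, namely pL2_Lgr5_Notch1fl_fl replicates 2 and 3, pL2_Lgr5_Notch2fl_fl replicate 2, pL2_Lgr5_Notch2IC_LacZ replicate 3 and pL2_Dclk_Notch1fl_fl replicate 2. The array titles fall into 4 series, AN (pL2_FXR, FXR, pL2 and WT at MRI), CM (IL8), NS (Freising) and TH (Notch lines), so the IL8 and Notch comparisons with pL2 and the facility comparisons cross title series, and title series cannot be told apart from group there. Some titles also end in an added number, the title suffix. It was on 3 of 3 arrays of WT at MRI, pL2 at MRI and pL2 at Freising on chow. On WT arrays at Freising on chow it was on 0 of 3. The title suffix thus cannot be told apart from facility in WT, or from the transgene at Freising on chow. The X-linked transcript Xist was above 8 in 3 of 3 FXR arrays, in 1 of 3 pL2 and 3 of 3 WT arrays at MRI, and in none of the Freising WT or pL2 arrays on chow. The labels give no sex. In bulk tissue, fewer cells of a type and less RNA per cell cannot be told apart.

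Dbp, which encodes a D-box activator that is among the strongest rhythmic outputs of the clock, spanned 4.83 to 8.60 over the 48 arrays. Its group means (log2 signal ± SD, n = 3 each) were 8.21 ± 0.64 in WT at MRI, 7.50 ± 0.65 in pL2_IL8 at 12 months, 7.41 ± 0.20 in pL2_Lgr5_Notch2fl_fl and 7.37 ± 1.50 in WT at Freising on HFD. They were 7.06 ± 0.30 in pL2 at Freising on HFD, 6.98 ± 0.23 in pL2 at Freising on chow, 6.94 ± 0.81 in pL2_Dclk_Notch2IC_LacZ, 6.90 ± 0.90 in pL2_Dclk_Notch1fl_fl and 6.71 ± 0.15 in pL2_Dclk_Notch2fl_fl. The lower end held pL2_Lgr5_Notch1fl_fl at 6.64 ± 0.21, pL2_FXR at 6.55 ± 0.09, pL2_IL8 at 9 months at 6.04 ± 1.27, WT at Freising on chow at 5.97 ± 0.73, pL2_Lgr5_Notch2IC_LacZ at 5.93 ± 0.23, FXR at 5.84 ± 0.19 and pL2 at MRI at 5.46 ± 0.90. In all 15 pairs of neighbours in this order the arrays of both groups overlapped, and the extremes, pL2 and WT at MRI, come from 1 facility and 1 title series.

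Npas2, the partner of Arntl that can stand in for Clock, ran nearly the other way. Its mean was 8.18 ± 0.08 in FXR, 7.98 ± 0.62 in pL2 at MRI, 7.89 ± 0.28 in WT at Freising on chow and 7.89 ± 0.75 in pL2_Lgr5_Notch2IC_LacZ, the 4 groups lowest in Dbp. It was 7.18 ± 0.57 in pL2_IL8 at 12 months and 6.68 ± 0.79 in WT at MRI, the 2 groups highest in Dbp (SD, n = 3 each). The other 10 group means lay between 7.20 ± 0.42 in pL2_Dclk_Notch2fl_fl and 7.81 ± 0.67 in pL2_IL8 at 9 months. Again all 15 pairs of neighbours overlapped.

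**Figure D1:**
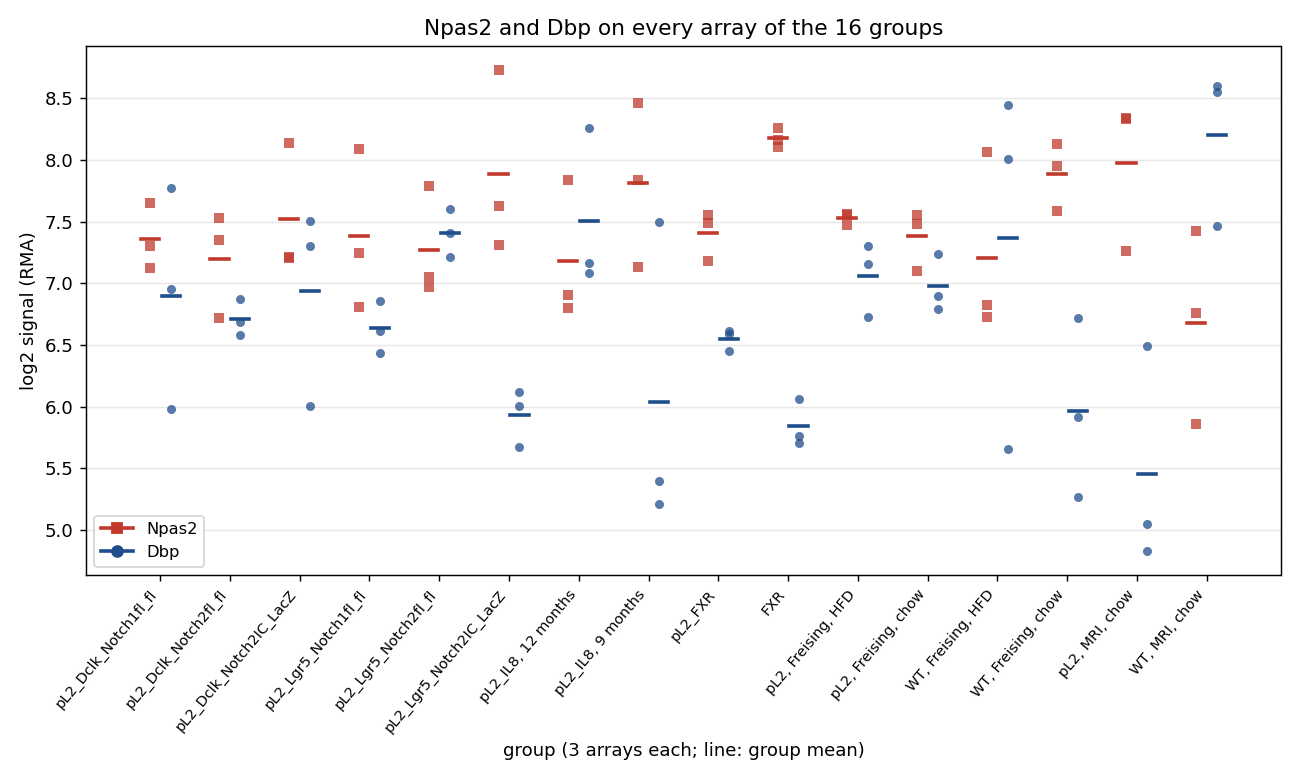
Log2 signal (y axis) of Npas2 (squares) and Dbp (circles) on each of the 48 arrays, by group (x axis), with a line at each mean of 3 arrays. The heights of the 2 genes are not comparable with each other, since they come from different probe sets; Dbp is lowest in pL2 at MRI (mean 5.46) and highest in WT at MRI (mean 8.21), and Npas2 is lowest in WT at MRI (mean 6.68).

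Among the genes driven by the activators, Tef was lowest in pL2 at MRI (4.92 ± 0.79) and highest in WT at MRI (6.37 ± 0.68; SD, n = 3 each), as were Nr1d1 (7.73 ± 0.56 and 9.33 ± 0.26) and Nr1d2 (6.70 ± 0.41 and 8.12 ± 0.28). Ciart was lowest in FXR (4.48 ± 0.40) and highest in pL2_IL8 at 12 months (6.96 ± 0.24). Per3, the Per gene thought least essential to the loop, was lowest in FXR (5.46 ± 0.30) and highest in pL2_Lgr5_Notch2fl_fl (7.20 ± 0.63). Per1 was lowest in pL2_Lgr5_Notch2IC_LacZ (7.62 ± 0.27) and highest in pL2_IL8 at 9 months (8.87 ± 0.29), a group low in Dbp. For each of these genes all 15 pairs of neighbouring groups overlapped.

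Arrays of the same group were far apart in several groups. In WT mice at Freising on HFD, Dbp read 8.01, 8.44 and 5.65 on the 3 arrays while Npas2 read 6.83, 6.72 and 8.07. The third array was thus low in Dbp and high in Npas2 beside mice of the same genotype, diet and facility. That array was also higher in skeletal muscle markers, with a mean of 5.91 against 4.18 and 4.06 on the other 2 arrays, and the part of this in the clock values was not tested. In the IL8 line at 9 months, Dbp read 7.50, 5.21 and 5.40, and Npas2 read 7.13, 7.84 and 8.46, so there the first array stood apart in both genes. The difference Npas2 minus Dbp, which has no meaningful zero and serves only to order arrays, ran from −2.74 in WT at MRI replicate 3 to 3.51 in pL2 at MRI replicate 3. Within WT at Freising on HFD, the group with the largest range, it spanned 4.13, and within pL2 at Freising on chow, the smallest, 0.274. The 16 group means, each over 3 arrays, spanned 4.05.

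This opposition was also seen across single arrays, though not within every group. Over 48 arrays Dbp correlated with Npas2 at Pearson r = −0.79 (Spearman rho = −0.75; permutation p = 1e-05 for both, the smallest that 100000 permutations give; adjusted p = 1.1e-05 over the 8 relations tested). With group means subtracted and arrays permuted within groups, r was −0.66 (permutation p = 0.00043, adjusted p = 0.000491; rho −0.63, p = 0.00044, adjusted p = 0.000503). Without the 2 arrays farthest from the median of Dbp, pL2 replicate 3 and WT replicate 3 at MRI, r was −0.75. Within title series r was −0.92 in AN (n = 12; permutation p = 2e-05), −0.83 in CM (n = 6; exact permutation p = 0.0444, adjusted p = 0.063), −0.85 in NS (n = 12; permutation p = 0.00068) and −0.52 in TH (n = 18; permutation p = 0.0256, adjusted p = 0.0293). In the title series and over 48 arrays, arrays were permuted across groups, so differences between groups enter these p-values. In 10 of the 16 groups the array highest in Dbp was the lowest in Npas2, a count that 2.56% of tested genes reach. Arntl showed this in 11 groups, a count that 0.689% of genes reach. In 3 groups the array highest in Dbp was instead the highest in Npas2, a count that 94.4% of genes reach. The array highest in Dbp was also the highest in Nr1d2, Per3 and Bhlhe41 in 12 groups each (a count reached by 0.112% of genes), in Tef in 11 (0.394%), and in Nr1d1 and Ciart in 10 each (1.78%). For Per1 this held in 5 groups, the median count over all tested genes.

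**Figure D2:**
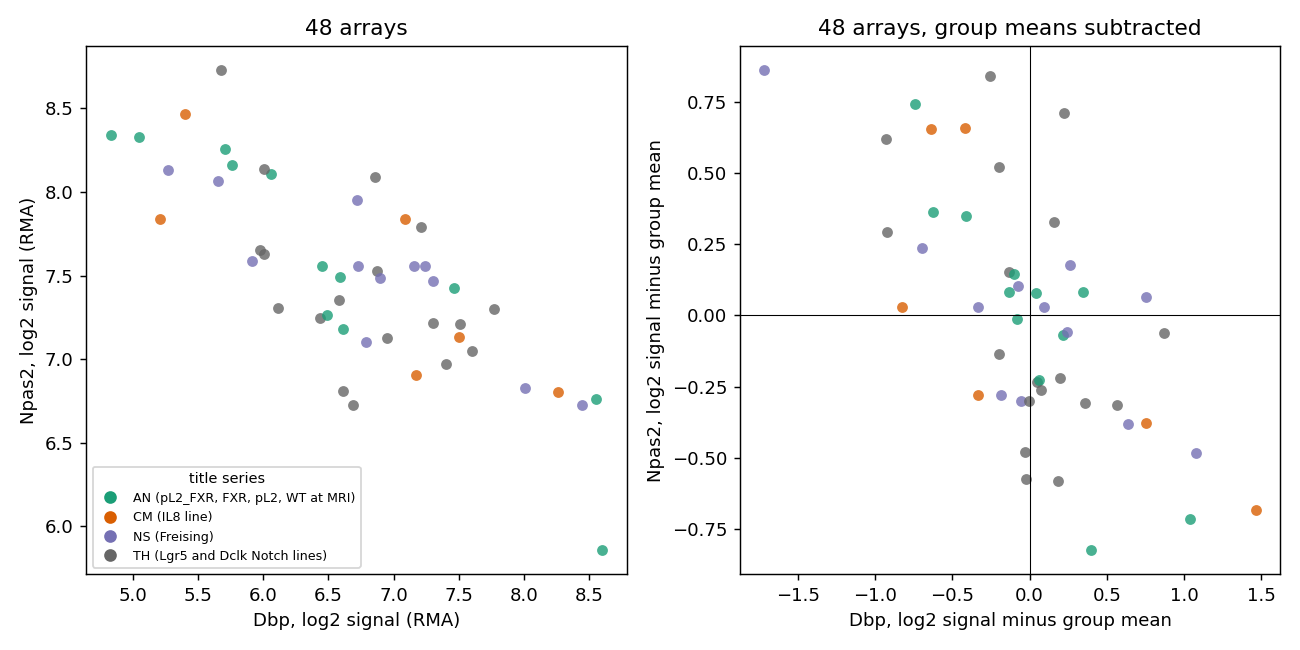
Npas2 (y axis, log2 signal) against Dbp (x axis, log2 signal) on 48 arrays, coloured by title series, as measured (left) and after subtraction of each group's mean (right). Arrays high in Dbp tend to be low in Npas2 in both panels (r = −0.79 and −0.66).

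The other measured genes followed Dbp across arrays. Pearson r with Dbp over 48 arrays was 0.89 for Nr1d2, 0.83 for Tef, 0.81 for Per3, 0.80 for Bhlhe41, 0.79 for Nr1d1 and 0.74 for Ciart, and Spearman rho lay between 0.749 and 0.911, each with permutation p = 1e-05 (adjusted p = 1.1e-05). Per1, which besides the clock responds directly to hormonal and stress signals, followed less closely, at r = 0.44 (permutation p = 0.00207) and rho = 0.49 (permutation p = 0.00055). After subtraction of group means r was 0.85 for Nr1d2, 0.80 for Bhlhe41, 0.79 for Tef and 0.79 for Per3, 0.67 for Nr1d1, 0.59 for Ciart and 0.44 for Per1. Without the 2 farthest arrays these 7 values ran from 0.43 (Per1) to 0.873 (Nr1d2). Within title series Per1 differed most, with r of 0.93 in NS (n = 12; permutation p = 2e-05) and −0.80 in CM (n = 6; exact permutation p = 0.0694, adjusted p = 0.0794). In both Dbp-low arrays of the IL8 line at 9 months, Per1 read 8.97 and 9.09, above the 8.54 of the Dbp-high array.

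Among all 15242 genes, those most like Dbp over the 48 arrays, leaving out the genes described here, were Hlf (r = 0.74), another D-box activator, and then Slc26a11 (0.53), Mrm2 (0.53), Slc12a4 (0.52), C87436 (0.51) and Arrdc3 (0.51). The most opposite were Arntl (−0.84), the core activator, Nfil3 (−0.67), the D-box repressor, Rasl11a (−0.60), Ciapin1 (−0.56), Slc35d1 (−0.54) and Slco4a1 (−0.53). Only 0.177% of tested genes reached an r of 0.5 in either direction. Npas2 was most like Arntl (0.83), Tmem238l (0.64), Btnl5-ps (0.64) and Dgat1 (0.63), and most opposite to Hlf (−0.61), Abcb1b (−0.56), Snora75 (−0.54) and Snora2b (−0.52), with 0.741% of genes reaching 0.5. Other clock genes did not track Dbp to this degree. Clock itself, the usual partner of Arntl, had r = −0.08 and Cry1, a repressor that acts with the Per proteins, r = −0.04, while its relative Cry2 had r = 0.50. These r values are descriptions over 48 arrays that share tissue make-up and title series.

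**Figure D3:**
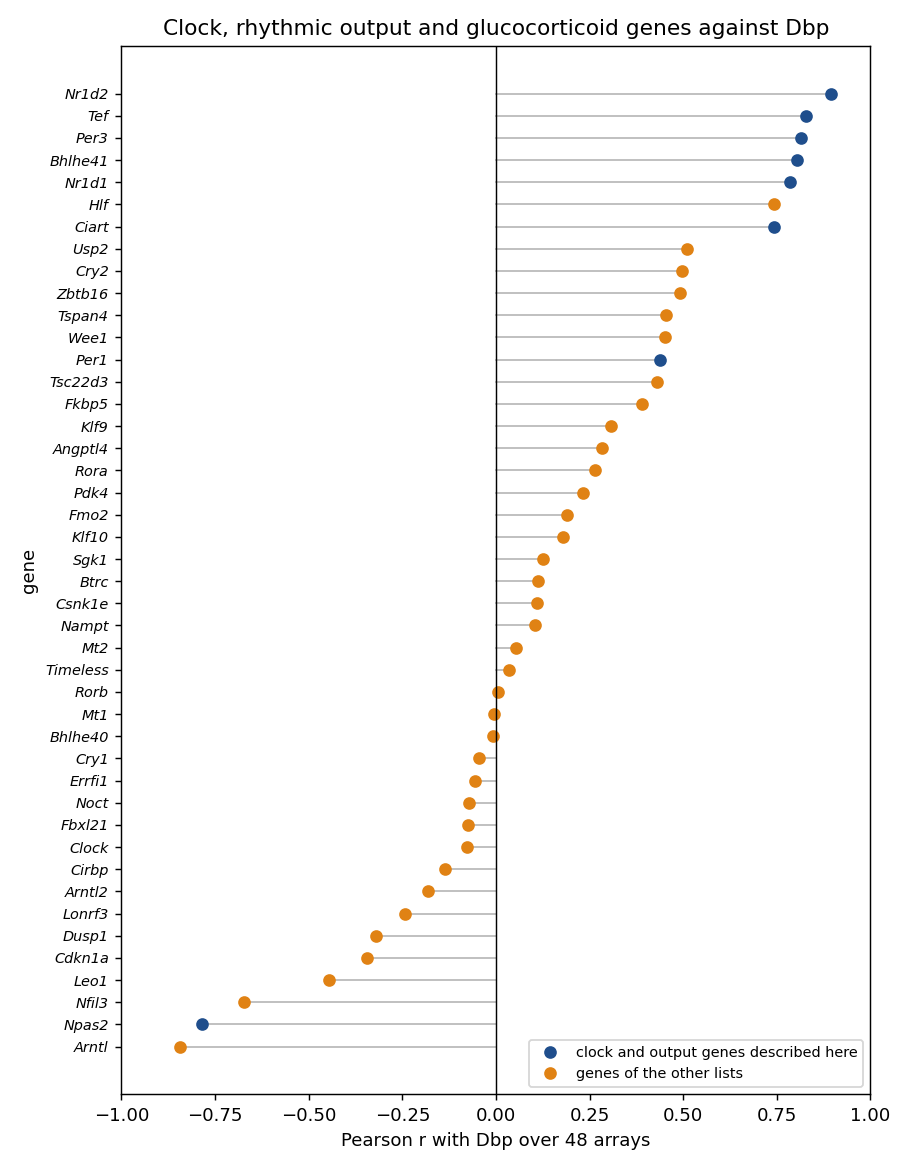
Pearson r with Dbp over 48 arrays (x axis) for the 8 other measured clock and output genes (blue) and the genes of the other clock, rhythmic output and glucocorticoid lists (orange), 1 gene per row. Arntl (−0.84), Npas2 (−0.79) and Nfil3 (−0.67) lie at the negative end, and Nr1d2 (0.89) at the positive end.

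A moderated F test asked whether any group mean differed among the 16. It called 6 of the 9 genes, where 52.3% of all tested genes were called, so the count lies near the background. The called genes were Bhlhe41 (adjusted p = 7.72e-05), Dbp (adjusted p = 0.00421), Ciart (adjusted p = 0.00666), Per3 (adjusted p = 0.00725), Nr1d2 (adjusted p = 0.0183) and Tef (adjusted p = 0.0192), by limma with Benjamini-Hochberg adjustment over all genes. Nr1d1 (adjusted p = 0.0739), Npas2 (adjusted p = 0.132) and Per1 (adjusted p = 0.218) did not pass. Bhlhe41, which encodes the E-box repressor DEC2, ranged from a mean of 3.95 ± 0.15 in pL2_Lgr5_Notch2IC_LacZ to 6.16 ± 0.46 in WT at MRI (SD, n = 3 each).

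Of 22 comparisons between groups, 5 held at least 1 call among the 9 genes and 17 held none. The 5 were the transgene at MRI, the facility in WT, the transgene's difference between facilities, the FXR line and the IL8 line at 12 months. The first 4 of these use the 3 WT arrays at MRI, and the IL8 comparison uses the 3 pL2 arrays at MRI, which 12 of the 22 comparisons share. The signs of Npas2 and Dbp were opposite in 21 of the 22 comparisons, and both genes passed in opposite directions in 2, the transgene at MRI and the FXR line. Since comparisons share arrays, these counts are not independent. The exception in sign was HFD in pL2, with a difference of 0.09 ± 0.55 for Dbp and 0.15 ± 0.41 for Npas2, neither passing.

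**Figure D4:**
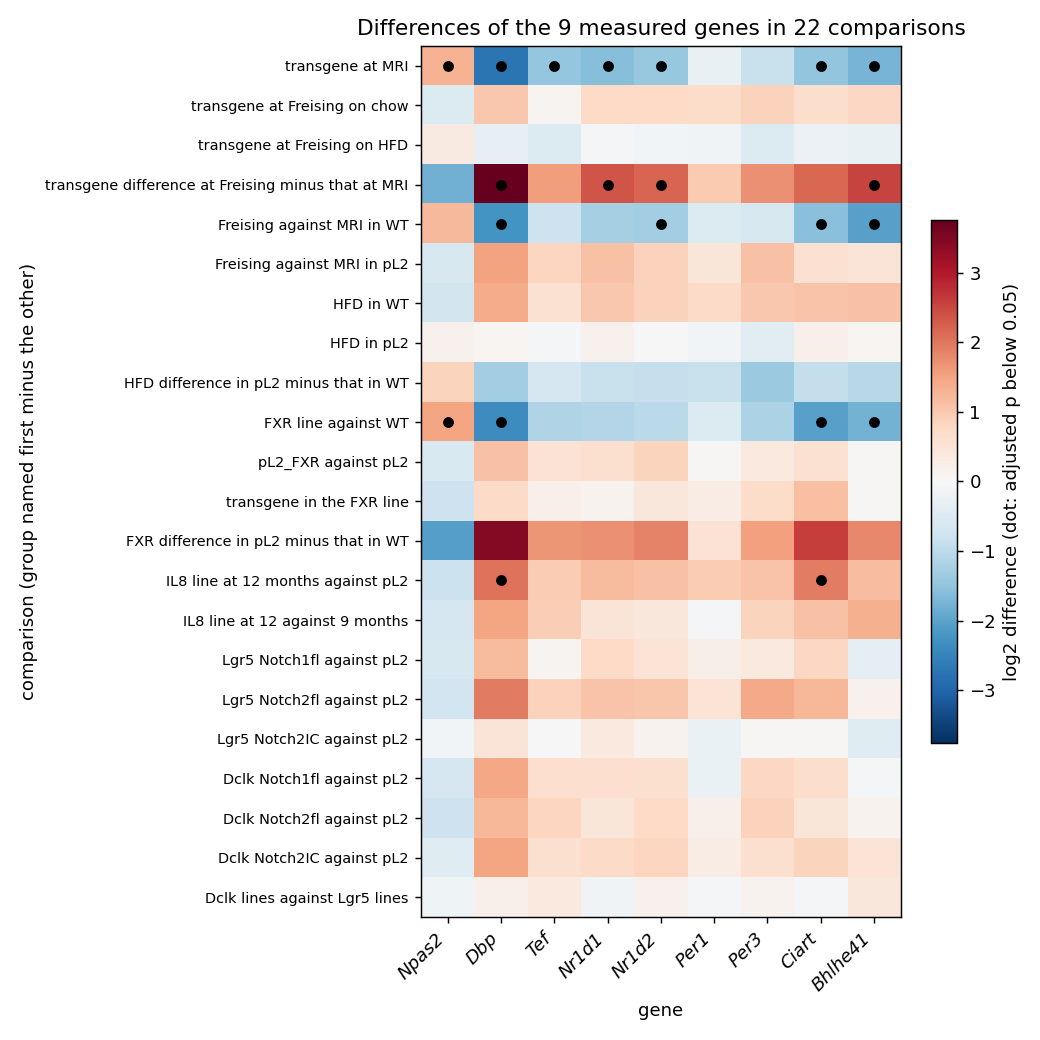
Log2 difference (colour) of each of the 9 measured genes (columns) in each of the 22 comparisons (rows, group named first minus the other), with a dot where the adjusted p was below 0.05. Npas2, in the first column, has the opposite colour to Dbp, in the second, in every row except HFD in pL2.

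The transgene was compared at MRI in 3 pL2 and 3 WT arrays on chow, both in title series AN. Of the 9 genes 7 passed, 6 lower and 1 higher, where 23% of tested genes passed. Dbp read 6.49, 5.05 and 4.83 in pL2 mice, against 8.55, 7.46 and 8.60 in WT mice. No pL2 array reached the lowest WT array, and the difference was −2.75 ± 0.55 (SE; adjusted p = 0.000506), 6.72-fold lower between the group means.

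Bhlhe41 read 5.09, 3.85 and 4.29 in pL2 mice, against 6.03, 5.78 and 6.68 in WT mice, a difference of −1.75 ± 0.34 (adjusted p = 0.00034). The 2 groups did not overlap. The array medians, which set the filter on low signals, ran from 4.03 to 4.27. A Bhlhe41 difference against a group at this level rests on low signals, and its size is uncertain. Nr1d1 read 8.38, 7.41 and 7.40 in pL2 mice, against 9.32, 9.07 and 9.59 in WT mice, and was lower by 3.03-fold (−1.60 ± 0.43; adjusted p = 0.00672). Nr1d2, its paralogue, read 7.16, 6.52 and 6.41 in pL2 mice, against 8.08, 7.86 and 8.41 in WT mice (−1.42 ± 0.33; adjusted p = 0.0021). For both receptors all pL2 arrays were below all WT arrays.

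Ciart, which encodes a repressor of the Arntl and Clock pair, read 5.26, 5.10 and 4.72 in pL2 mice, against 7.12, 5.31 and 7.12 in WT mice (−1.49 ± 0.48; adjusted p = 0.0229). The groups were separated by only the gap between pL2 replicate 1 and WT replicate 2. Tef read 5.84, 4.44 and 4.49 in pL2 mice, against 6.74, 5.58 and 6.79 in WT mice, so the groups overlapped (−1.45 ± 0.37; adjusted p = 0.00494). The second probe set of Tef was dimmer, with a mean of 3.81 against 5.53, and correlated with the first at r = 0.353. Npas2 read 7.27, 8.33 and 8.34 in pL2 mice, against 6.76, 7.42 and 5.86 in WT mice, higher by 1.30 ± 0.41 (adjusted p = 0.0185) with overlapping groups. Per1 (−0.28 ± 0.46; adjusted p = 0.717) and Per3 (−0.85 ± 0.39; adjusted p = 0.111) did not pass.

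Genes of the rest of the loop were taken from lists of other clock genes, rhythmic outputs and glucocorticoid-responsive genes. Of 3 other activators, Arntl (1.06 ± 0.34; adjusted p = 0.0197) and Arntl2 (1.48 ± 0.25; adjusted p = 0.000115) were higher in pL2 mice and Clock did not pass. None of the 4 other repressors (Cry1, Cry2, Bhlhe40, Timeless) and none of 3 clock kinase and ligase genes passed. Of the 4 measured D-box and RORE genes, Nfil3 was higher (0.83 ± 0.27; adjusted p = 0.024) and Hlf was lower (−1.64 ± 0.34; adjusted p = 0.000745). Of 10 rhythmic output genes 4 were lower and none higher, namely the deubiquitinase gene Usp2 (−1.65 ± 0.44), the NAD synthesis gene Nampt (−0.72 ± 0.19), Tspan4 (−1.02 ± 0.27) and the flavin monooxygenase gene Fmo2 (−1.63 ± 0.50). Of 12 glucocorticoid-responsive genes, Zbtb16 (−3.03 ± 0.71) and Klf9 (−1.28 ± 0.34) were lower and Cdkn1a (0.93 ± 0.25) and Dusp1 (1.04 ± 0.34) were higher. The median difference of the 9 genes was −1.45, against 0.01 over all tested genes.

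Muscle moved with this comparison. All 8 smooth muscle markers were lower in pL2 mice, with a mean of 8.10 to 10.1 in pL2 arrays against 11.1 to 11.6 in WT arrays, and 6 of 8 tested skeletal muscle markers were lower (4.08 to 5.39 in pL2 arrays, 6.27 to 6.59 in WT arrays). All 4 endothelial markers were also lower. Higher in pL2 mice were 3 of 4 neutrophil markers, 2 of 5 squamous basal, 1 of 6 suprabasal and 1 of 6 intestinal markers. With the skeletal muscle mean in the model 3 of the 9 genes passed, with the smooth muscle mean, added after the data were seen, 4 passed, and Dbp (−3.15 and −2.61) and Bhlhe41 (−2.06 and −1.44) passed in both. The share of all tested genes passing was not counted for these or the later alternatives, except array weights. Without the 9 arrays high in hepatocyte or intestinal markers, which removes 1 array from each group, 2 genes passed, Dbp at −2.26 (adjusted p = 0.0332) and Bhlhe41 at −1.75 (adjusted p = 0.00801). The highest Dbp among pL2 arrays was in replicate 1, the pL2 array with Xist above 8. Replicate 1 was also nearest to WT in muscle, with skeletal markers at 5.39, against 4.37 and 4.08 in replicates 2 and 3. Smooth muscle markers were at 10.1 against 8.10 and 8.38, and endothelial markers at 7.11 against 5.43 and 5.67. Which of these goes with the Dbp of replicate 1 was not tested. A sex-linked score in the model left 6 of the 9 genes passing, with Dbp at −2.50 (adjusted p = 0.00268). Leaving out any 1 of the 48 arrays kept Dbp and Bhlhe41 past the threshold here; Npas2 lost it without pL2 replicate 2 or 3 or WT replicate 3 (0.89; adjusted p = 0.162 without the last), and Ciart without pL2 replicate 2 or 3 or WT replicate 1 or 3.

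**Figure D5:**
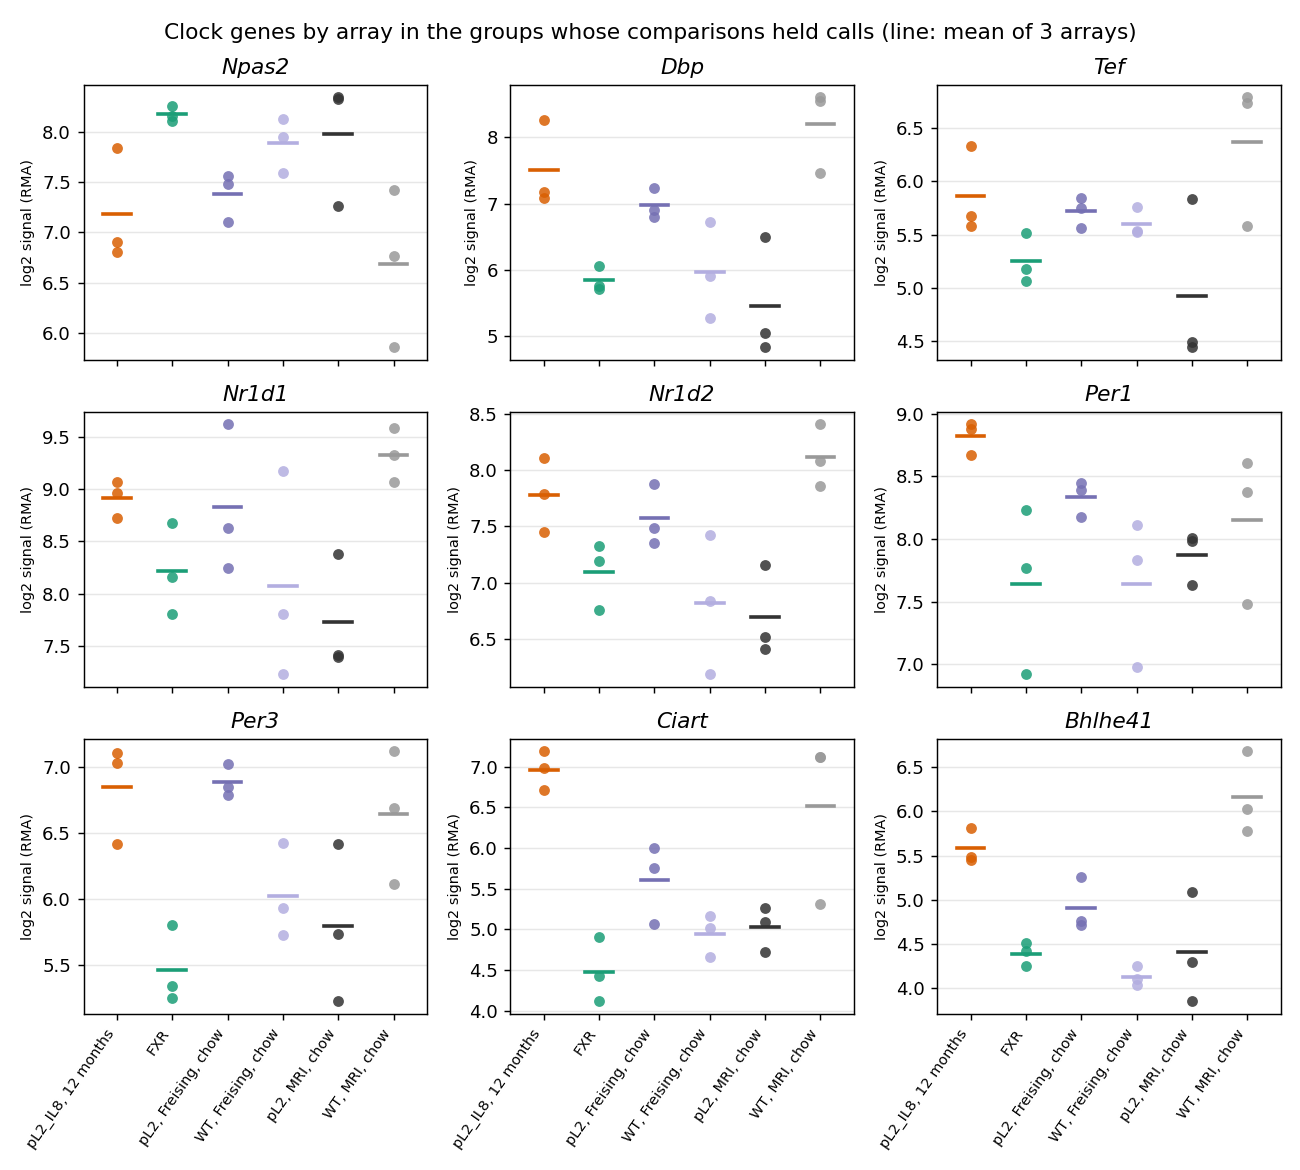
Log2 signal (y axis) of the 9 measured genes on each array (points) in the 6 groups whose comparisons held calls (x axis), with lines at means of 3 arrays. WT at MRI is highest of these 6 groups in Dbp, Tef, Nr1d1, Nr1d2 and Bhlhe41 and lowest in Npas2, and pL2_IL8 at 12 months is highest in Per1 and Ciart.

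At Freising the same transgene gave no call among the 9 genes, where 1.64% of genes passed on chow and 1.16% on HFD. On chow Dbp read 7.24, 6.90 and 6.79 in pL2 mice, against 6.72, 5.91 and 5.27 in WT mice, with no overlap, a difference of 1.01 ± 0.55 (adjusted p = 0.362) in the direction opposite to MRI. Npas2 read 7.56, 7.49 and 7.10 in pL2 mice, against 7.95, 7.59 and 8.13 in WT mice (−0.51 ± 0.41; adjusted p = 0.561), also without overlap. On HFD the difference was −0.31 ± 0.55 for Dbp and 0.32 ± 0.41 for Npas2 (adjusted p = 0.864 and adjusted p = 0.787), with overlapping groups.

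The transgene's difference at Freising on chow minus that at MRI was tested as an interaction. It called 4 of the 9 genes, each with a higher pL2 minus WT difference at Freising than at MRI, where 1.76% of tested genes passed. These were Dbp (3.76 ± 0.78; adjusted p = 0.015), Bhlhe41 (2.53 ± 0.48; adjusted p = 0.0082), Nr1d2 (2.18 ± 0.47; adjusted p = 0.0194) and Nr1d1 (2.36 ± 0.61; adjusted p = 0.0407). Ciart (2.15 ± 0.68; adjusted p = 0.0833), Npas2 (−1.81 ± 0.57; adjusted p = 0.0833), Per3 (1.71 ± 0.55; adjusted p = 0.0848) and Tef (1.56 ± 0.53; adjusted p = 0.103) did not pass. Of the other lists this difference was lower at Freising for Arntl (−1.86 ± 0.47; adjusted p = 0.0396). It was higher for Hlf (2.05 ± 0.48; adjusted p = 0.0304) and the glucocorticoid-responsive Zbtb16 (4.48 ± 1.00; adjusted p = 0.024). Of the marker lists 1 gene passed in this interaction, the endothelial cadherin gene Cdh5 (1.83 ± 0.43; adjusted p = 0.0304), singled out after its value was seen. The median of the 4 endothelial markers was 1.46, that of 8 skeletal muscle markers 1.72 and that of 8 smooth muscle markers 0.83, with none of the muscle markers passing; their part in the clock values was not tested. With only the 4 compared groups in the fit none of the 9 genes passed (Bhlhe41 adjusted p = 0.0594, Dbp adjusted p = 0.0605, Nr1d2 adjusted p = 0.0722, Nr1d1 adjusted p = 0.133). The Nr1d1 call was lost on leaving out any of 7 arrays and the Nr1d2 call on leaving out any of 6, among the 12 arrays compared. The Dbp call was lost without pL2 replicate 2 or 3 or WT replicate 3 at MRI or pL2 replicate 1 at Freising (3.44; adjusted p = 0.0715 without pL2 replicate 3 at MRI), and without the 9 marker-high arrays only Bhlhe41 passed (2.53; adjusted p = 0.0342).

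The facility was compared directly in WT mice on chow, where 3 Freising arrays were set against 3 MRI arrays. Of the 9 genes 4 passed, all lower, where 8.14% of tested genes passed. Bhlhe41 read 4.25, 4.10 and 4.04 at Freising, against 6.03, 5.78 and 6.68 at MRI, a difference of −2.03 ± 0.34 (adjusted p = 0.000589). All 3 Freising values lie within the range of the array medians, so the size of this difference rests on low signals and is uncertain. Dbp read 6.72, 5.91 and 5.27 at Freising, against 8.55, 7.46 and 8.60 at MRI (−2.24 ± 0.55; adjusted p = 0.0115). Both genes separated the facilities without overlap.

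Nr1d2 (−1.30 ± 0.33; adjusted p = 0.0138) and Ciart (−1.57 ± 0.48; adjusted p = 0.0387) were lower as well, with no overlap of the groups. Npas2 read 7.95, 7.59 and 8.13 at Freising, against 6.76, 7.42 and 5.86 at MRI, all Freising arrays above all MRI arrays, but the difference of 1.21 ± 0.41 did not pass (adjusted p = 0.0565). All 3 other activators were higher, Arntl by 1.33 ± 0.34 (adjusted p = 0.013), Arntl2 by 0.84 ± 0.25 (adjusted p = 0.0367) and Clock by 0.49 ± 0.16 (adjusted p = 0.0453). Hlf was lower (−1.36 ± 0.34; adjusted p = 0.0129), and of 12 glucocorticoid-responsive genes Zbtb16 (−2.21 ± 0.71) and Klf9 (−1.20 ± 0.34) were lower and Cdkn1a was higher (0.79 ± 0.25). Of 8 skeletal muscle markers 7 were lower at Freising (mean 4.16 to 4.41 at Freising, 6.27 to 6.59 at MRI), 1 of 4 neutrophil markers was lower, and none of 8 smooth muscle markers passed. With the skeletal muscle mean in the model Bhlhe41 (−2.39; adjusted p = 0.00994) and Nr1d2 (−1.85; adjusted p = 0.0288) passed, while Dbp was at −2.70 (adjusted p = 0.0553). With a sex-linked score in the model 1 of the 9 genes passed, Bhlhe41 (−1.86; adjusted p = 0.0143), while Dbp was at −1.83 (adjusted p = 0.114). These cannot be told apart from facility in 6 arrays. Dbp lost the call without Freising replicate 2 or 3 or MRI replicate 1 (−1.89; adjusted p = 0.0781 without Freising replicate 3), Nr1d2 without Freising replicate 2 or 3 or MRI replicate 3, and Ciart without any of the 6 arrays except MRI replicate 2.

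In pL2 mice the difference between facilities had the other sign for Dbp, with no call among the 9 genes where 1.21% of genes passed. Dbp read 7.24, 6.90 and 6.79 at Freising, against 6.49, 5.05 and 4.83 at MRI, without overlap (1.52 ± 0.55; adjusted p = 0.125). Npas2 differed by −0.60 ± 0.41 (adjusted p = 0.434).

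The line named for FXR, the bile acid receptor encoded by Nr1h4, was compared with WT mice at MRI in 3 arrays each, all of title series AN and all with Xist above 8. Of the 9 genes 4 passed, 3 lower and 1 higher, where 2.12% of tested genes passed. Dbp read 5.76, 6.06 and 5.71 in FXR mice, against 8.55, 7.46 and 8.60 in WT mice, 5.14-fold lower (−2.36 ± 0.55; adjusted p = 0.0196). Npas2 read 8.16, 8.11 and 8.26 in FXR mice, against 6.76, 7.42 and 5.86 in WT mice, 2.82-fold higher (1.50 ± 0.41; adjusted p = 0.0417). The groups did not overlap in either gene.

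Ciart read 4.90, 4.42 and 4.12 in FXR mice, against 7.12, 5.31 and 7.12 in WT mice (−2.04 ± 0.48; adjusted p = 0.0211). Bhlhe41 read 4.42, 4.25 and 4.51 in FXR mice, against 6.03, 5.78 and 6.68 in WT mice (−1.77 ± 0.34; adjusted p = 0.00295). Tef (−1.12 ± 0.37; adjusted p = 0.112), Nr1d1 (−1.11 ± 0.43; adjusted p = 0.179), Nr1d2 (−1.02 ± 0.33; adjusted p = 0.097) and Per3 (−1.18 ± 0.39; adjusted p = 0.102) did not pass. Of the other lists 1 gene passed, Arntl, higher by 1.24 ± 0.34 (adjusted p = 0.0405). Of the marker lists, 3 of 8 skeletal muscle markers, 4 of 5 squamous basal markers, 2 of 6 suprabasal markers and 1 of 4 neutrophil markers were lower in FXR mice and none was higher. With the skeletal muscle mean in the model 1 of the 9 genes passed, Bhlhe41 (−2.06; adjusted p = 0.0149), while Dbp was at −2.74 (adjusted p = 0.0884), Ciart at −2.31 (adjusted p = 0.113) and Npas2 at 1.62 (adjusted p = 0.238). Dbp lost the call without FXR replicate 1 or 2 or WT replicate 1 or 3 (−2.16; adjusted p = 0.0979 without the last). Npas2 lost it without any of the 3 FXR arrays or WT replicate 1 or 3 (1.08; adjusted p = 0.27 without the last), and Ciart without FXR replicate 2 or 3 or WT replicate 1 or 3.

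No gene of the 9 passed in pL2_FXR against pL2 mice, where 0.0853% of genes passed, or in pL2_FXR against FXR mice, where 10.1% passed. Dbp read 6.59, 6.61 and 6.45 in pL2_FXR mice, against 6.49, 5.05 and 4.83 in pL2 mice (1.09 ± 0.55; adjusted p = 0.702) and against 5.76, 6.06 and 5.71 in FXR mice (0.71 ± 0.55; adjusted p = 0.442). In the second comparison Arntl2 (0.98 ± 0.25; adjusted p = 0.0119) and Bhlhe40, the relative of Bhlhe41 (0.93 ± 0.27; adjusted p = 0.0258), were higher and Cirbp, which encodes a cold-inducible RNA-binding protein, was lower (−0.77 ± 0.26; adjusted p = 0.0497). The interaction of the FXR line with the transgene was 3.45 ± 0.78 for Dbp (adjusted p = 0.0546) and −2.07 ± 0.57 for Npas2 (adjusted p = 0.104), with no call among the 9 genes and 0.138% of all genes called.

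The IL8 line carries interleukin-8 in addition to the pL2 transgene. At 12 months it was compared with pL2 mice at MRI, and 2 of the 9 genes passed, both higher, where 1.82% of tested genes passed. Dbp read 8.26, 7.17 and 7.09 in IL8 mice, against 6.49, 5.05 and 4.83 in pL2 mice (2.05 ± 0.55; adjusted p = 0.0447). Ciart read 7.19, 6.71 and 6.99 in IL8 mice, against 5.26, 5.10 and 4.72 in pL2 mice, 3.83-fold higher (1.94 ± 0.48; adjusted p = 0.0316). Neither gene's groups overlapped.

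Bhlhe41 (1.17 ± 0.34; adjusted p = 0.0588), Nr1d2 (1.09 ± 0.33; adjusted p = 0.0755), Nr1d1 (1.19 ± 0.43; adjusted p = 0.137) and Per1 (0.94 ± 0.46; adjusted p = 0.287) did not pass. Npas2 differed by −0.80 ± 0.41 (adjusted p = 0.312) and no gene of the other lists passed. The Dbp call was lost on leaving out any of 11 arrays and the Ciart call on leaving out any of 5, all 3 IL8 arrays and pL2 replicates 2 and 3 for both. The other arrays that cost Dbp its call lay outside the 2 groups compared. Without them the difference stayed at 2.05, with adjusted p from 0.0502 to 0.0513. Dbp had its lowest value of 1.67 (adjusted p = 0.211) without IL8 replicate 1, an array high in hepatocyte markers. Without the 9 marker-high arrays Dbp was at 1.36 (adjusted p = 0.418) and no gene passed. All 4 endothelial markers were higher in IL8 mice. Between 12 and 9 months within the line none of the 9 genes and 0% of all genes passed by limma, with 1184 genes at an unadjusted p below 0.05 (Dbp 1.47 ± 0.55, adjusted p = 0.443; Npas2 −0.63 ± 0.41, adjusted p = 0.807).

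The diet gave no call among the 9 genes. HFD against chow in WT mice at Freising called 0.164% of genes, and Dbp differed by 1.40 ± 0.55 (adjusted p = 0.98), with the 3 HFD arrays at 8.01, 8.44 and 5.65, against 6.72, 5.91 and 5.27 on chow. The first 2 HFD arrays were above all chow arrays and the third lay among them; over all alternatives the difference ran from 0.86 to 2.26. HFD in pL2 mice called 0% of genes by limma, with 872 at an unadjusted p below 0.05, of which 0 were among the 9. The interaction of diet and transgene called 0.0197% (Dbp −1.31 ± 0.78; adjusted p = 0.93).

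Each of the 6 Notch lines was compared with the same 3 pL2 arrays at MRI, across title series, and none of the 9 genes passed. The Dbp difference was positive in all 6. In the Lgr5 lines it differed by 1.18 ± 0.55 in Notch1fl_fl (0.144% of genes called), 1.95 ± 0.55 in Notch2fl_fl (0.0525% called) and 0.48 ± 0.55 in Notch2IC_LacZ (0.138% called), with adjusted p of 0.318, 0.23 and 0.785 by limma. In the Dclk lines it differed by 1.44 ± 0.55 in Notch1fl_fl, 1.26 ± 0.55 in Notch2fl_fl and 1.48 ± 0.55 in Notch2IC_LacZ, with adjusted p of 0.351, 0.317 and 0.61 and with 0%, 0.256% and 0.0197% of genes called (1589 genes at an unadjusted p below 0.05 in the first). Npas2 was between −0.78 ± 0.41 (Dclk Notch2fl_fl) and −0.09 ± 0.41 (Lgr5 Notch2IC_LacZ) in these lines. Since all 6 share the pL2 arrays, their shared direction is not independent. The 9 Dclk arrays against the 9 Lgr5 arrays differed by 0.19 ± 0.32 for Dbp and −0.15 ± 0.23 for Npas2, with 0.945% of all genes called and none of the 9.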

How the data were processed

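The authors made log2 signals per probe set by RMA in Affymetrix Expression Console, per the submitters' processing notes; its version, the array's genome build and the annotation build are not given in the sources used here. Of 34390 deposited probe sets, 23521 carry 1 symbol, 1814 several and 9055 none; the brightest per symbol was used, giving 22180 symbols. Genes above the array median on at least 3 arrays were tested (15242). The number of arrays per group, 3, limits the precision.

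A linear model of 16 group means was fitted with limma 3.58.1 (R 4.3.3) over the 48 arrays, with 32 residual degrees of freedom. Benjamini-Hochberg adjustment ran over all genes of each of 22 comparisons, and a gene passed, or was called, at an adjusted p under 0.05. Differences carry standard errors. Correlations with Dbp used 100000 permutations (exact for 6 arrays) over 8 relations, since Per2 has no value. Arrays were permuted within groups only where group means were subtracted. Promoter windows came from RefSeq. The fit was tested on simulated data.

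Members, lists and tests were chosen with earlier results of these data known. All members are named, then members of the other lists that passed, and the 6 genes most and least like Dbp and the 4 most and least like Npas2. Symbols made of Gm, LOC, BC or AC and digits, or ending in Rik, were left out of these. Other symbols of clone type, such as C87436, were not. Alternatives were other filters, probe set averages, array weights, trended robust moderation, cyclic loess, covariates, fewer samples and leaving out each array.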

Additional observations from a re-analysis of the deposited data

Results flagged for a closer look

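The pL2 minus WT difference of 4 clock genes on chow differed between Freising and MRI by a test of the difference itself. That test gave 3.76 for Dbp, 2.36 for Nr1d1, 2.18 for Nr1d2 and 2.53 for Bhlhe41 (log2, Freising minus MRI). With only the 4 compared groups in the fit none of the 4 passed, with adjusted p of 0.0605 for Dbp, 0.133 for Nr1d1, 0.0722 for Nr1d2 and 0.0594 for Bhlhe41 by limma. Without the 9 arrays high in hepatocyte or intestinal markers Bhlhe41 alone passed. On leaving out single arrays Dbp lost the call for 4 of the 48, Nr1d1 for 7, Nr1d2 for 6 and Bhlhe41 for none. The endothelial marker Cdh5 also passed in this test (1.83). All 4 clock genes were lower in pL2 than in WT mice at MRI and none passed at Freising. Xist was above 8 in 0 of 3 WT and 0 of 3 pL2 arrays at Freising on chow. At MRI it was above 8 in 3 of 3 WT and 1 of 3 pL2 arrays. Time of sampling cannot be told apart from facility.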

How the results depend on the processing

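No paired analysis was possible because the labels give no replicate numbers that pair arrays across groups. Of the calls among named clock genes, Dbp, Bhlhe41 and Hlf in the transgene comparison at MRI, and Bhlhe41 in the facility and FXR comparisons, passed under every alternative run. Of 32 called differences of single genes none reversed under any alternative. The reversed values were all of differences that did not pass. Dbp with HFD in pL2, 0.09 as reported, was -0.011 with the title suffix and ran from -0.033 to 0.25 over all arrays left out singly, below 0 for 2 of them. Dbp with the transgene at Freising on HFD, -0.31 as reported, ran from -1.16 to 0.23, above 0 for 2 arrays left out. For Npas2 in the Dclk against the Lgr5 lines the value was 0.13 without the marker-high arrays. Npas2 in Lgr5 Notch2IC_LacZ, -0.09 as reported, was 0.080 with the sex-linked score, 0.021 with the smooth muscle mean and -0.51 to 0.20 over all arrays left out singly, above 0 for 4 of them. For Per1 in the transgene comparison at MRI it was 0.22 with the smooth muscle mean and 0.067 without the marker-high arrays.

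The count of comparisons with Npas2 and Dbp called in opposite directions, 2 as reported, was 10 with array weights, 1 with no filter, cyclic loess, the sex-linked score, the title suffix or only the compared groups, and 0 with the skeletal muscle mean or without the marker-high arrays; leaving out single arrays gave 0 to 5. For the transgene at MRI, 7 genes called became 3 with the skeletal muscle mean, 4 with the smooth muscle mean or only the compared groups, and 2 without the marker-high arrays. For Freising against MRI in WT, 4 became 1 with the sex-linked score and 2 with the skeletal muscle mean, without the marker-high arrays or with only the compared groups (1 to 6 on leaving out single arrays). For the interaction of facility and transgene, 4 became 8 with array weights, 1 without the marker-high arrays and 0 with only the compared groups (1 to 7). For the FXR line, 4 became 1 with the skeletal muscle mean and 2 without the marker-high arrays or with only the compared groups (1 to 5). For the IL8 line at 12 months, 2 became 8 with array weights, 1 with no filter, the skeletal muscle mean or the title suffix, and 0 without the marker-high arrays or with only the compared groups (0 to 5).

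Comparisons with no call changed mainly with array weights, where limma's estimate of the weights stopped before convergence. The counts of the 9 then were 8 for the FXR interaction (10.3% of all tested genes called), 7 for Freising against MRI in pL2 (30.9%), Lgr5 Notch2fl_fl (15.1%) and Dclk Notch2IC_LacZ (15.9%), 6 for HFD in WT (2.85%), 5 for Dclk Notch2fl_fl (30.4%), 2 for Dclk Notch1fl_fl (21.4%) and pL2_FXR against pL2 (10.4%), and 1 for the transgene at Freising on chow (16.2%), the diet interaction (3.58%) and the IL8 line at 12 against 9 months (2.04%). In the facility and transgene interaction and the IL8 line at 12 months, 23.3% and 27% of all genes were called with these weights. The FXR interaction gave 1 with the stricter filter or cyclic loess (0 to 6 on leaving out single arrays), the transgene in the FXR line gave 3 with only the compared groups, Freising against MRI in pL2 gave 0 to 3 and HFD in WT 0 to 2 on leaving out single arrays. The cause of these changes was not tested. The share of all tested genes called was counted only with array weights. For every other alternative, a change in these 9 genes cannot be told apart from a change in all genes. Leaving out marker-high arrays left 39, with 1 in pL2_Lgr5_Notch1fl_fl, which is assumed to vary like the other groups.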
